A study of Drosophila melanogaster with 30 samples.

Results

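The genes described here are 8 fruit fly genes tied to the transcription factor Apterous (Ap): the cofactor genes Chi, Ssdp and Bx, and the wing genes fng, Ser, trn, caps and vg. They were chosen by symbol, with earlier results of these data known. All 8 were found among the 14040 genes listed at embryonic stage 16 (St16) and the 14077 listed at the later time when air has filled the trachea (AFT). RNA of whole Drosophila melanogaster embryos was sequenced from 5 genotypes at both stages, with 3 replicates of each combination (30 samples), each a collection of more than 200 embryos. Every genotype carried elav-Gal4 (Bloomington stock 458), a driver described in the series as pan-neuronal and active mostly in postmitotic neurons. The control had this driver over a wild-type OregonR chromosome (stock 2376). The misexpressions had it over UAS-col-HA (col), UAS-myc-lbe (lbe) or both of these (col + lbe), or with UAS-Flag-Ap and UAS-eya-HPC4 (ap + eya).

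The values are in TPM, a measure of transcript abundance that divides by transcript length and sums to a fixed total in each library. The tables give 1 value per gene, genotype and stage, the authors' mean of 3 replicates. No difference below could therefore be set against the spread between replicates, no test, SD or p-value is given, and "higher" and "lower" describe these means. TPM keeps no sequencing depth, so the counting error of a value is unknown. The RNA came from whole embryos while the driver acts in neurons, so a level sums driven and undriven cells, and fewer cells of a type cannot be told apart from less RNA per cell. The targeted genes followed the labels: ap was at 92.8 TPM in ap + eya and 10.5 in the control at St16, and at 29.8 and 3.03 at AFT. In col + lbe, which carries no ap transgene, ap stood at 55.9 TPM at St16 and 31.9 at AFT.

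In the wing disc, Ap is the selector of the dorsal compartment. It works in a complex in which the adaptor protein Chip, the product of Chi, bridges a pair of Ap molecules, and Ssdp binds Chip and stabilises the assembly. Bx encodes dLMO, a LIM-only protein that competes with Ap for Chip, and in the disc Bx is itself turned on by Ap. Other dorsal genes that depend on Ap are fng, which encodes a glycosyltransferase that alters how Notch responds to its ligands, and Ser, which encodes one of those ligands. So are trn and caps, which encode transmembrane proteins with leucine-rich repeats. The Notch signal at the boundary of the compartments turns on vg, a nuclear cofactor of Scalloped and the selector of wing identity. Embryos have no wing disc yet, only its primordium, and several of these genes are also used in embryonic muscle, epidermis, trachea and neurons.

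In the control at St16, fng was at 54.1 TPM, trn at 48.6, Chi at 43.3, caps at 41.9 and Ssdp at 37.2. The other three were lower, with Bx at 10.7 TPM, vg at 10.4 and Ser at 10.1. The ranges over the 5 genotypes of a stage show which genes in this order were close. That of fng (47.1 to 56.2 TPM) overlapped trn (45.8 to 48.6), and trn overlapped caps (40.2 to 46.7) and, at its lower end, Ssdp (37.2 to 45.8). Chi (40.5 to 43.3) overlapped caps and Ssdp. Those of Bx (5.67 to 13.1), vg (5.43 to 10.4) and Ser (7.93 to 10.1) overlapped each other. At AFT the order in the control was caps at 40.3 TPM, Chi at 18.3, Ssdp at 14.0, trn at 13.2, fng at 12.1, Bx at 10.1, Ser at 3.12 and vg at 2.24. The range of caps at AFT (35.1 to 40.3 TPM) lay above that of every other gene of the group, and those of Ser (2.40 to 3.15) and vg (0.970 to 2.24) lay below the rest without overlapping each other.

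**Figure D1:**
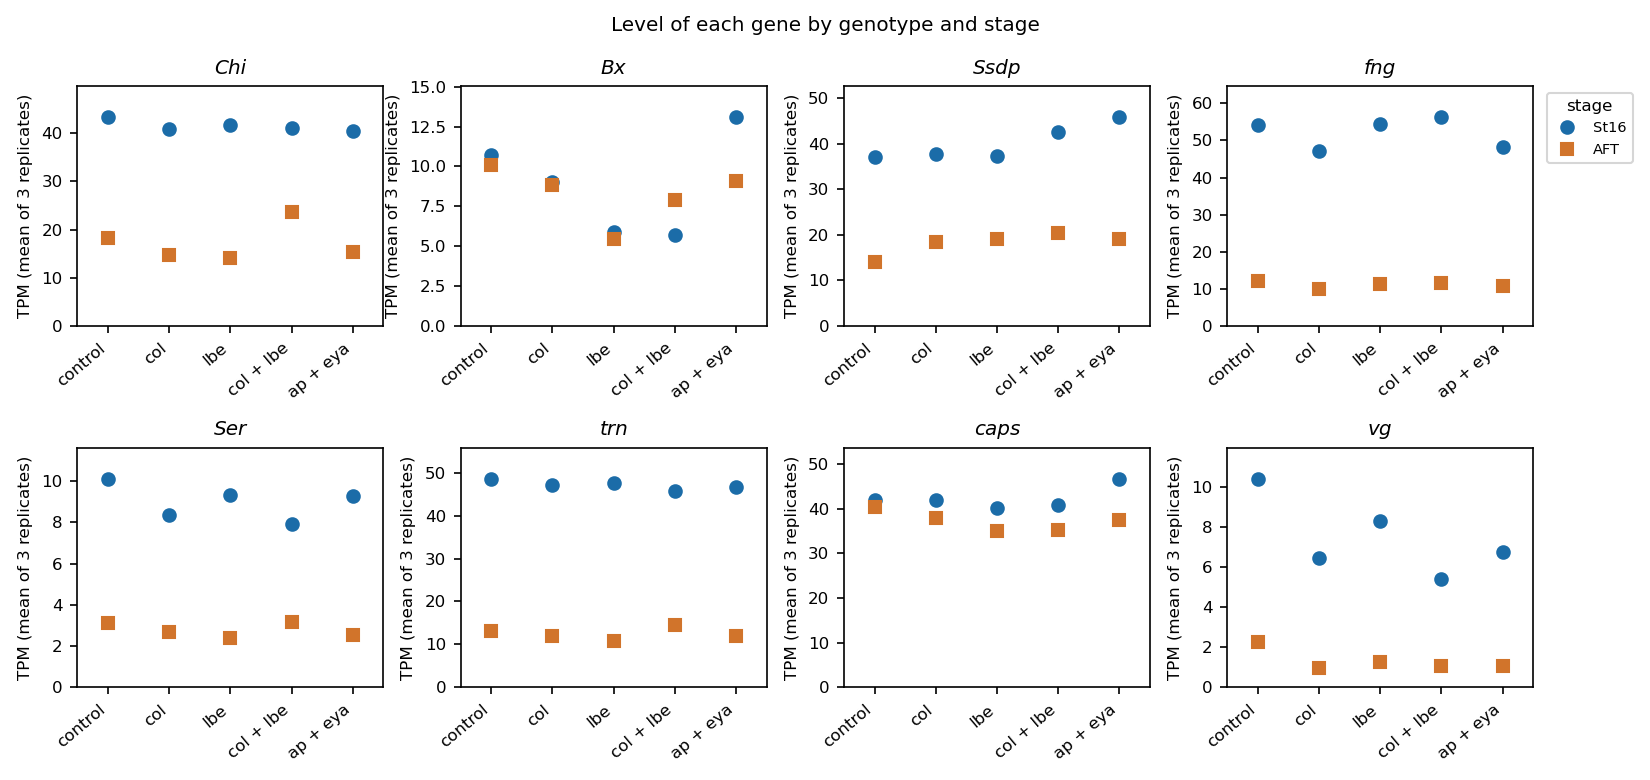
TPM of each of the 8 genes (vertical axis from 0, own scale per panel) in the 5 genotypes, with circles for St16 and squares for AFT; each point is the authors' mean of 3 replicates and has no error bar. Bx at St16 is lowest in lbe and col + lbe (5.92 and 5.67 TPM), and vg is highest in the control at both stages (10.4 and 2.24 TPM).

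Across both stages the 8 genes and 8 comparisons with the control gave 64 fold changes, taken as differences of log2(TPM + 1). All 8 genes reached 1 TPM in at least 1 of the groups compared in every comparison. Of the 64 values, 48 were below 0 and 16 above, and they ran from -0.83 to 0.52. Of all genes tested, the share below 0 was 77.2%, 73.1%, 62.2% and 53.7% in col, lbe, col + lbe and ap + eya at St16, and 63.1%, 64.7%, 37.0% and 64.7% at AFT, so most genes were also below 0 in each comparison other than col + lbe at AFT. Rescaling the columns by their median ratio, which shifts the median of all genes by up to 0.12 in a comparison (lbe at AFT), made this 41 below and 23 above, and so did quantile normalisation. An offset of at least 1.5-fold was reached 8 times, each time downward, 5 times by vg and 3 times by Bx, and no gene of the group was 1.5-fold higher in any misexpression. None was 2-fold apart on this scale.

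At St16 the counts at 1.5-fold were 1 of 8 in col (vg), 1 in lbe (Bx), 2 in col + lbe (Bx and vg) and 0 in ap + eya, where 2.15%, 2.13%, 6.57% and 4.09% of all genes tested were that far apart in either direction. Genes lower by this much made up 1.36%, 1.58%, 4.99% and 2.77%. At AFT the count was 1 of 8 in each comparison: vg in col, col + lbe and ap + eya, and Bx in lbe. A share of 1 in 8 is 12.5%, and the share of all genes was 12.7% for col, 12.5% for lbe, 19.2% for col + lbe and 12.4% for ap + eya, so at AFT the group stood close to the background of all genes or under it. Genes lower by this much at AFT made up 8.2% for col, 8.63% for lbe, 9.17% for col + lbe and 8.2% for ap + eya. The median of the 8 genes was -0.14 for col, -0.05 for lbe, -0.08 for col + lbe and -0.07 for ap + eya at St16. All genes had medians of -0.08, -0.07, -0.05 and -0.02 in the same comparisons. At AFT the medians of the 8 were -0.17, -0.27, -0.02 and -0.15, and those of all genes -0.10, -0.13, 0.11 and -0.11. The 4 comparisons of a stage share their control mean and are not independent of each other.

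**Figure D2:**
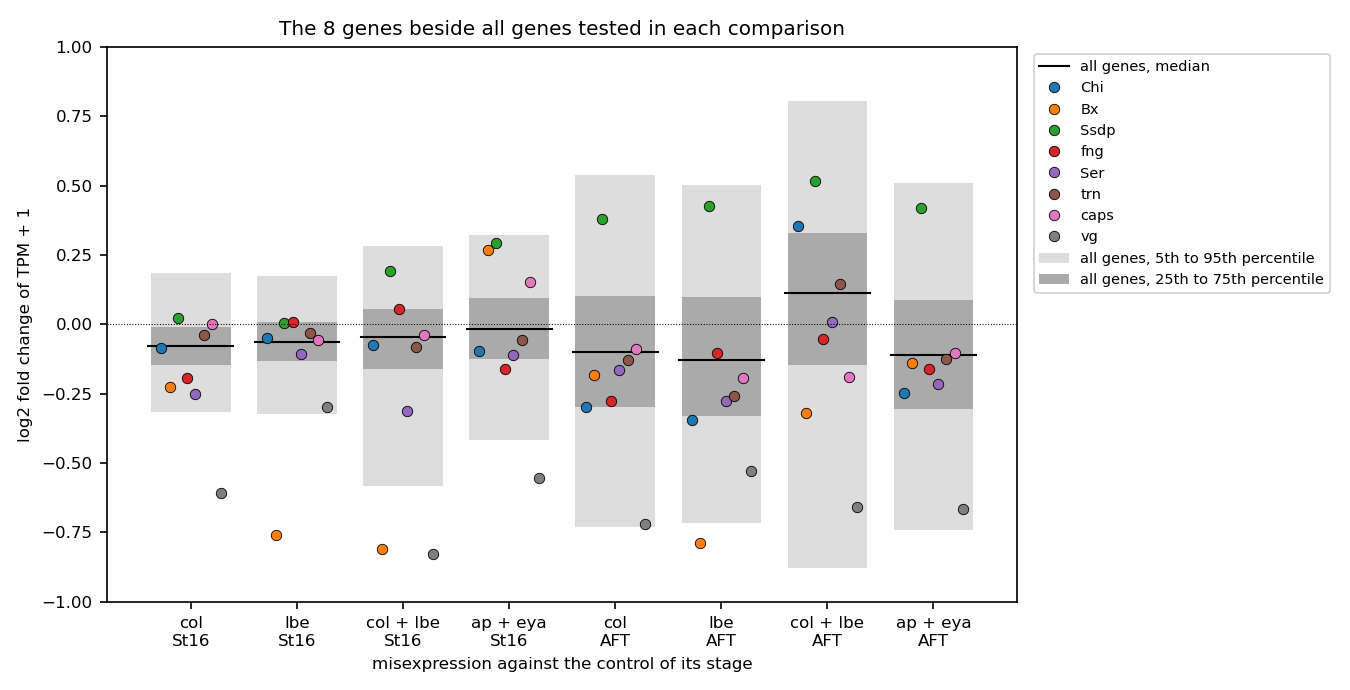
log2 fold change of TPM + 1 (vertical axis) for the 8 genes (coloured points) in each misexpression against the control of its stage, over bars for all genes tested (light, 5th to 95th percentile; dark, 25th to 75th; line, median). Most points lie inside the light bars; at St16 Bx in lbe and col + lbe and vg in col, col + lbe and ap + eya lie under them, as does Bx in lbe at AFT, and the bars are wider at AFT.

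Bx, which encodes the competitor of Ap for Chip, was the cofactor gene with the largest offsets. At St16 it was at 10.7 TPM in control embryos, 9.01 with col, 5.92 with lbe, 5.67 with col + lbe and 13.1 with ap + eya. The genotypes that carry UAS-myc-lbe were thus the lowest, at ratios to the control of 0.553 and 0.530, and ap + eya was the highest, at 1.22. As log2 fold changes these are -0.76 for lbe, -0.81 for col + lbe and 0.27 for ap + eya. Of all genes tested, 0.775% were as low or lower in lbe, 3.06% in col + lbe, and 7.44% as high or higher in ap + eya.

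At AFT, Bx was at 10.1 TPM in control embryos, 8.81 with col, 5.44 with lbe, 7.92 with col + lbe and 9.10 with ap + eya. The level in lbe was again the lowest (-0.79, with 4.01% of genes as low or lower), while col + lbe came to -0.32 and ap + eya to -0.14. In ap + eya, Bx was above the control at St16 and below it at AFT, and both offsets were under 1.5-fold. Set directly against col instead of the control, lbe gave a log2 difference of -0.53 at St16 and -0.61 at AFT, and 0.785% and 1.84% of genes were as low or lower. These direct values do not use the control mean. At St16 the log2 difference of col + lbe from ap + eya was -1.08, with 0.493% of genes as low or lower. With the median of the other 4 genotypes as the reference, Bx in ap + eya at St16 was 0.73 higher, past 1.5-fold, as 2.69% of genes were.

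On build BDGP6.54, Bx (FBgn0265598) lies on X from 18515428 to 18572809 on the plus strand and has 5 annotated transcripts. One of the 5 shares 255 exonic bases with HisRS, a histidyl-tRNA synthetase gene on the same strand. HisRS itself did not have the pattern of Bx: at St16 control embryos had 39.2 TPM, lbe embryos 38.4 and col + lbe embryos 41.0, and the AFT levels were 44.4, 53.5 and 53.9. Another gene on the same strand within Bx, CG15047, shares no exonic bases with it, and its low St16 levels had the order of Bx, at 1.29 TPM in ap + eya, 0.917 in control embryos, 0.647 in col, 0.342 in lbe and 0.330 in col + lbe. At AFT its order was another, with the control lowest at 0.126 TPM and ap + eya highest at 0.698.

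Chi and Ssdp, which encode the adaptor of the complex and its stabiliser, were both at their higher levels at St16. Chi at St16 was at 43.3 TPM in control embryos, 40.8 with col, 41.8 with lbe, 41.1 with col + lbe and 40.5 with ap + eya. The highest and the lowest of these differ by a ratio of 1.07, and with ap at 92.8 TPM the level of Chi was 40.5 TPM. At AFT, Chi was at 18.3 TPM in control embryos, 14.7 with col, 14.2 with lbe, 23.6 with col + lbe and 15.2 with ap + eya. The genotype col + lbe was above the control (log2 fold change 0.35) and the others below it (-0.30 in col, -0.35 in lbe and -0.25 in ap + eya), all under 1.5-fold. Against the median of the other 4 genotypes, col + lbe was 0.63 higher, past 1.5-fold, where 12.8% of genes were. The non-additive value at AFT, which is col + lbe minus col minus lbe plus the control on the log2 scale, was 1.00 for Chi, against a median of 0.31 over all genes and 93.8% of genes as low or lower.

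Of the neuronal markers elav, nSyb, Syt1, brp and futsch, 5 of 5 were above the control in col + lbe at AFT, as Chi was. Among all genes tested there, 37.0% were below 0 and the median was 0.11. In col, lbe and ap + eya at AFT, nSyb, Syt1 and brp were below the control, as Chi was, while elav and futsch were above it, by 0.02 to 0.21. The markers summed to 162 TPM in control embryos, 133 with col, 114 with lbe, 185 with col + lbe and 128 with ap + eya. For Chi as for this sum, col + lbe was highest, the control next and lbe lowest, but nSyb at 90.6 TPM and Syt1 at 48.6 made up most of the sum in the control. The part of neuronal RNA content in the level of Chi was not tested. No marker of this list was at 0 in the control at either stage, and at St16 the sum ran from 179 TPM in lbe to 203 in ap + eya.

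Ssdp was above the control in each of the 8 comparisons. At St16 it was at 37.2 TPM in control embryos, 37.8 with col, 37.3 with lbe, 42.6 with col + lbe and 45.8 with ap + eya. The fold changes of col (0.02) and lbe (0.00) were at or near 0, and col + lbe (0.19) and ap + eya (0.29) were the high ones. At AFT, Ssdp was at 14.0 TPM in control embryos, 18.5 with col, 19.1 with lbe, 20.4 with col + lbe and 19.0 with ap + eya. Here the misexpressions lay together, 0.38 to 0.52 above the control. Set against the median of the other 4 genotypes, each of the 4 came to between -0.04 and 0.12. The control was below all 4 misexpressions for 9.42% of all genes at St16 and 20.9% at AFT.

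**Figure D3:**
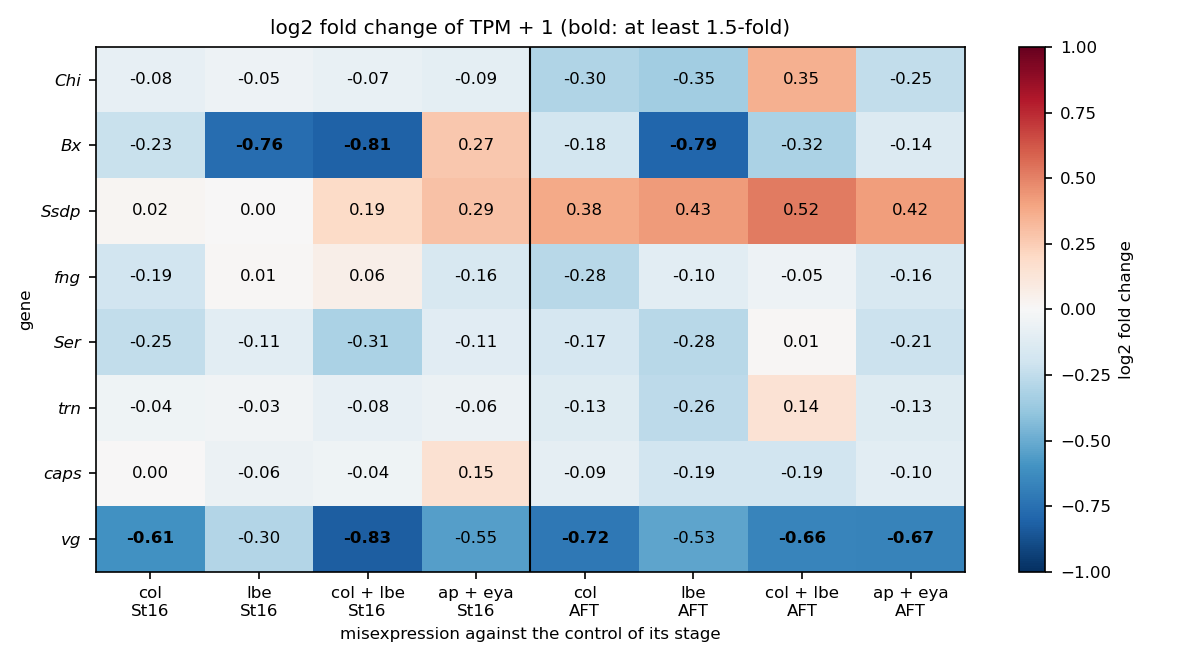
log2 fold change of TPM + 1 of each gene (rows) in each misexpression against the control of its stage (columns), blue for lower and red for higher on a scale from -1 to 1, with values of at least 1.5-fold in bold. The bold cells are those of Bx in lbe and col + lbe at St16 and in lbe at AFT, and of vg in 5 comparisons.

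For fng and Ser, which encode the modifier and a ligand of Notch, offsets were small. At St16, fng was at 54.1 TPM in control embryos, 47.1 with col, 54.4 with lbe, 56.2 with col + lbe and 48.3 with ap + eya. The genotypes col and ap + eya were the low ones (-0.19 and -0.16). At AFT fng was at 12.1 TPM in control embryos, 9.83 with col, 11.2 with lbe, 11.6 with col + lbe and 10.7 with ap + eya, with col again the lowest (-0.28). Ser at St16 was at 10.1 TPM in control embryos, 8.34 with col, 9.31 with lbe, 7.93 with col + lbe and 9.29 with ap + eya. The control was above all 4 here. The lowest value was that of col + lbe (-0.31). At AFT, Ser was low throughout, at 3.12 TPM in control embryos, 2.68 with col, 2.40 with lbe, 3.15 with col + lbe and 2.55 with ap + eya. In ap + eya, where ap was 8.81 times its control level at St16, the ratios to the control were 0.893 for fng and 0.920 for Ser.

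The leucine-rich repeat genes trn and caps hardly moved at St16. There trn was at 48.6 TPM in control embryos, 47.2 with col, 47.5 with lbe, 45.8 with col + lbe and 46.7 with ap + eya, the narrowest relative range of the 8 genes, with a ratio of 1.06 between the highest and the lowest. At AFT, trn was at 13.2 TPM in control embryos, 11.9 with col, 10.8 with lbe, 14.6 with col + lbe and 12.0 with ap + eya. Like Chi, it was highest in col + lbe (0.14) and lowest in lbe (-0.26). As with Chi, the neuronal markers nSyb, Syt1 and brp were on the same side of the control as trn in each comparison at AFT, elav and futsch only in col + lbe, and the part of neuronal RNA was not tested. For caps the St16 values were 41.9 TPM in control embryos, 42.0 with col, 40.2 with lbe, 40.8 with col + lbe and 46.7 with ap + eya, with ap + eya the highest (0.15). At AFT, caps was at 40.3 TPM in control embryos, 37.8 with col, 35.1 with lbe, 35.2 with col + lbe and 37.4 with ap + eya. The control was then above all 4, with offsets from -0.09 to -0.19. Rescaling turns the sign of several caps and trn offsets: caps was above 0 in 6 of 8 comparisons after median-ratio scaling, in place of 2.

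The selector gene vg was lower than the control in all 8 comparisons. At St16 it was at 10.4 TPM in control embryos, 6.47 with col, 8.28 with lbe, 5.43 with col + lbe and 6.77 with ap + eya. The lowest was col + lbe, at a ratio of 0.522 to the control, and the nearest to the control was lbe, at 0.796. The log2 fold changes of col, lbe, col + lbe and ap + eya were -0.61, -0.30, -0.83 and -0.55, and 1.22%, 5.80%, 2.94% and 3.08% of all genes tested were as low or lower. The log2 difference of col + lbe from lbe was -0.53, with 3.49% of genes as low or lower.

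At AFT, vg was at 2.24 TPM in control embryos, 0.970 with col, 1.25 with lbe, 1.05 with col + lbe and 1.04 with ap + eya. The misexpressions lay close together and below the control. The plain TPM ratio to the control was 0.433 for col, 0.556 for lbe, 0.469 for col + lbe and 0.465 for ap + eya. The authors' deposited table lists vg as at least 2-fold lower in col (log2 -1.21), col + lbe (-1.09) and ap + eya (-1.10) at AFT, and holds none of the other genes of the group in any comparison. By the plain ratio and among the genes tested here, 6.47%, 10.7% and 6.59% of genes were 2-fold apart in these comparisons, and 6.01% in lbe. On the log2(TPM + 1) scale the offsets were -0.72, -0.66 and -0.67, and 5.15%, 7.91% and 6.25% of genes were as low or lower. In col, vg passed the minimum of 1 TPM only through the control.

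The offsets of vg share the control of their stage, which was above all 4 misexpressions, as it was for 35.1% of genes at St16 and 27.3% at AFT. At St16 vg also differed between misexpressions. There lbe was 0.31 above col on the log2 scale, with 2.28% of genes as high or higher, and col + lbe was below lbe (-0.53). At AFT lbe was 0.19 above col, with 13.6% of genes as high or higher. The control alone has the OregonR chromosome opposite the driver, so its background and the lack of a transgene cannot be told apart. Against the median of the other 4 genotypes, vg came to between -0.41 in col + lbe and 0.28 in lbe at St16, and to between -0.13 in col and 0.13 in lbe at AFT, all under 1.5-fold. Marker sums that also had the control at the top were those of muscle (Mhc, Act57B, up, Mef2 and sls), whose St16 sum was 9541 TPM in control embryos and 7567 to 8875 in the others, and whose AFT sum was 16535 TPM and 14028 to 14628. Act57B was most of the sum, with 7372 TPM in control embryos at St16 and 11186 at AFT. The other muscle markers were not all below the control: in ap + eya at St16, sls (0.38) and Mhc (0.19) were above it, with a list median of -0.01, and at AFT up was above it in col, lbe and ap + eya and Mef2 in col + lbe. Glial markers summed to 369 TPM in control embryos and 338 to 365 in the others at St16, and to 815 against 576 to 689 at AFT, where Gs2 alone was at 598 TPM in the control. All 5 glial markers were below the control in col, lbe and ap + eya at AFT, but in col + lbe 4 of 5 were above it, with a median of 0.13. The 121 cuticle protein genes of the Cpr, Lcp, Ccp and Twdl families, which are switched on late in embryogenesis, summed to 7755 TPM in control embryos at St16 and to 6544 with col, 6070 with lbe, 3355 with col + lbe and 4768 with ap + eya. At AFT the sum was 75638 TPM in control embryos and between 38813 and 64561 in the others. A list drawn up for the wing and haltere primordia held esg, Dll, nub and sn, but sn is singed, not snail (sna), and does not mark them. Its St16 sum was 158 TPM in control embryos, of which sn was 87.8, and between 153 and 182 in the others. Of the 4 genes only Dll was below the control in every comparison at St16. At AFT all 4 were below the control in col, lbe and ap + eya, as vg was. Their medians, with sn included, were -0.34, -0.34 and -0.41. In col + lbe at AFT, esg (0.33), Dll (0.11) and sn (0.35) were above the control, with nub below (-0.36). The part of muscle, glia, cuticle and primordia in the level of vg was not tested.

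From St16 to AFT, 6 of the 8 genes were at least 2-fold lower in the control, where 24.8% of 10510 genes were. The levels come from separate tables, and St16 libraries were single reads of 50 bp while AFT libraries were paired reads of 150 bp, so stage and read layout cannot be told apart. The control ratio of St16 to AFT was 4.64 for vg, 4.46 for fng, 3.69 for trn, 3.23 for Ser, 2.66 for Ssdp and 2.37 for Chi. It was 1.06 for Bx and 1.04 for caps. In col + lbe, Bx was 0.42 higher at AFT than at St16 on the log2 scale, while in the other genotypes the difference was between -0.03 and -0.48. Chi had its smallest stage difference in col + lbe, with a ratio of St16 to AFT of 1.74, against 2.37 in the control and 2.66 to 2.95 in the other misexpressions.

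**Figure D4:**
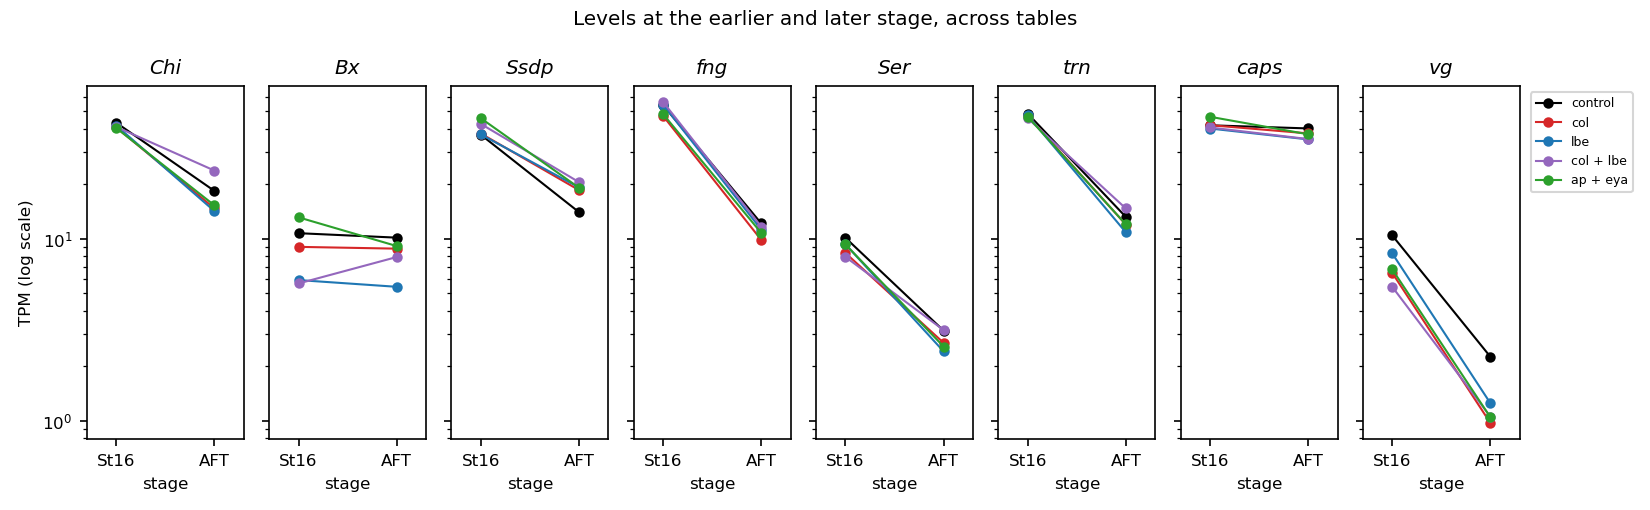
TPM on a log axis at St16 and AFT for each gene, 1 line per genotype, each point the authors' mean of 3 replicates from the table of its stage. Lines for fng, trn, Ser and vg slope down in every genotype, those for caps are nearly flat, and Bx slopes up in col + lbe alone (5.67 to 7.92 TPM).

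The LIM-homeodomain genes besides ap share with it the kind of domain that Chip binds. They are tup, Lim1, Lim3, Awh, Lmx1a and CG4328. In col + lbe at St16 the list of 7 with ap had 1 gene at least 1.5-fold higher, ap, and 2 lower, Lmx1a (2.93 TPM against 8.19 in the control, -1.23) and CG4328 (2.17 against 6.31, -1.21). Their list median was -0.36, beside -0.05 over all genes. In ap + eya at St16, Lmx1a (-0.91) and CG4328 (-0.70) were again the 2 lower ones, with ap the only one higher and a list median of -0.35. At AFT in ap + eya, 3 were lower: Lim3 (12.8 TPM in the control and 6.36, -0.91), CG4328 (-0.77) and Lmx1a (-0.76). In lbe at AFT the same 3 were lower, with Lim3 at 6.19 TPM (-0.94). Of all genes tested, 4.99% in col + lbe and 2.77% in ap + eya were at least 1.5-fold lower at St16. At AFT these shares were 8.2% in ap + eya and 8.63% in lbe. Lmx1a and CG4328 were below the control in all 8 comparisons, with offsets from -0.50 to -1.23. The control was above all 4 misexpressions for 35.1% of all genes at St16 and 27.3% at AFT.

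**Figure D5:**
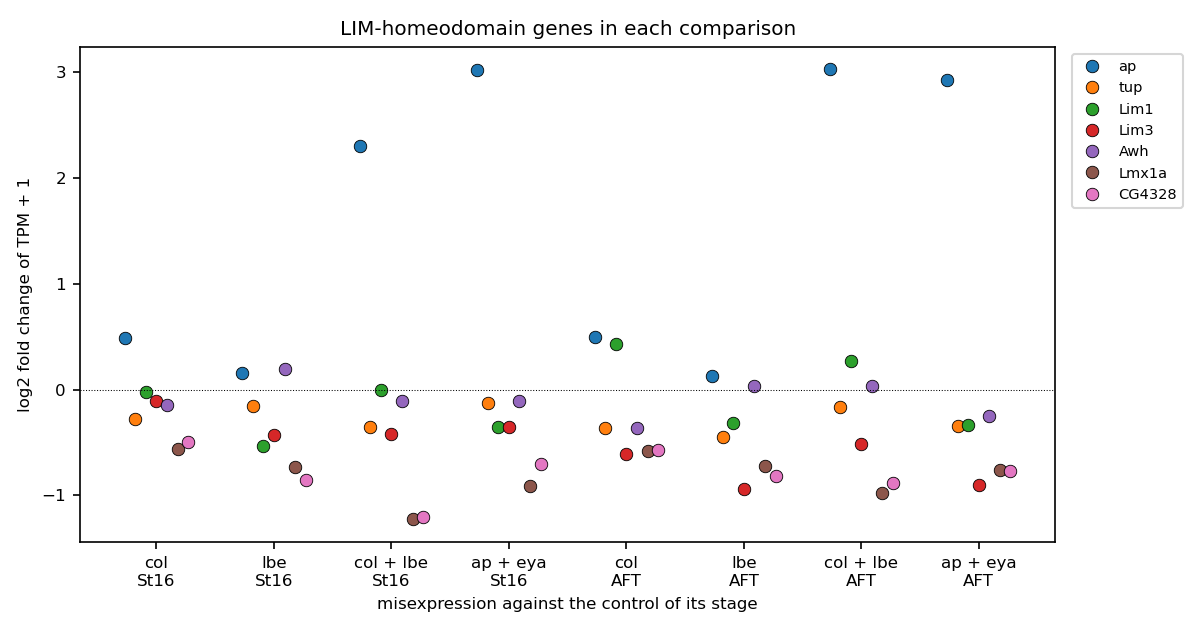
log2 fold change of TPM + 1 (vertical axis) of the 7 LIM-homeodomain genes in each misexpression against the control of its stage; each point compares 2 means of 3 replicates. ap stands near 3 in ap + eya at both stages and in col + lbe at AFT, and Lmx1a and CG4328 lie below 0 throughout, at about -1.2 in col + lbe at St16.

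Of the 11 other partners of Chip or of its complexes (pnr, ush, osa, da, ac, sc, pygo, lgs, su(Hw), arm and pan), 9 were tested in each comparison. None was 1.5-fold apart at St16. At AFT, ush, a cofactor of the GATA factor Pannier, was the 1 of 9 past 1.5-fold in col, lbe and ap + eya, each time lower. Its level was 5.62 TPM in ap + eya against 9.42 in the control (-0.65). Of all genes tested, 8.2% in col, 8.63% in lbe and 8.2% in ap + eya were at least 1.5-fold lower. The medians of this list ran from -0.11 to 0.06 at St16 and from -0.28 to -0.08 at AFT. Those of all genes ran from -0.08 to -0.02 and from -0.13 to 0.11.

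Of 14 core genes of the Notch pathway, 13 were above the control in ap + eya at St16, with a median of 0.18 beside -0.02 over all genes. One was past 1.5-fold, as 4.09% of all genes were in either direction. This was the ligand gene Dl, at 12.3 TPM in the control and 19.6 in ap + eya (0.62), and the receptor gene N was at 9.75 and 13.9 (0.48). Dl encodes the ligand to which fng makes Notch more responsive. Ser, the other ligand gene, was at 10.1 and 9.29 TPM in the same groups. In the same comparison all 11 E(spl) complex genes, which are Notch targets, were below 0, with a median of -0.24, none of them past 1.5-fold and the largest offset in E(spl)m6-BFM (52.4 TPM against 71.9, -0.45). The share of all genes below 0 in ap + eya was 53.7%. With col, all 11 E(spl) genes were below 0 at St16 too, with a median of -0.29. E(spl)m6-BFM was then at 44.0 TPM (-0.69), past 1.5-fold, and 1.36% of all genes were at least 1.5-fold lower. Among all genes, 77.2% were below 0 with col, and their median was -0.08. With lbe, 9 of 11 were below 0 at a median of -0.16, beside 73.1% of all genes and their median of -0.07. In col + lbe at St16, E(spl)m6-BFM was at 40.9 TPM (-0.80) and all 11 were below 0, with a median of -0.35. After quantile normalisation 9 of 11 were. The median of all genes in col + lbe was -0.05, 62.2% were below 0 and 4.99% were at least 1.5-fold lower. Dl was at 18.6 TPM there (0.56), under 1.5-fold. The neuronal markers were also higher in ap + eya at St16, 4 of 5 above 0 with a median of 0.22, and their part in the Notch list was not tested. In ap + eya at AFT, 6 of the 14 Notch genes were above the control and 8 below, with a median of -0.09 beside -0.11 over all genes. Of 9 E(spl) genes tested there, 4 were above and 5 below (-0.08). These counts were 5 and 4 in col + lbe (0.05), 2 and 6 in col (-0.27) and 3 and 6 in lbe (-0.02) at AFT. E(spl)m6-BFM was lower in all 4, from -1.09 in lbe to -2.13 in col + lbe.

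The 17 leucine-rich repeat surface protein genes other than trn and caps had 16 tested in ap + eya at St16. Of these 15 were above 0 with a median of 0.23 and none past 1.5-fold, led by kek1 (10.1 TPM in the control and 15.0, 0.53). Of all genes tested in ap + eya at St16, 53.7% were below 0, with a median of -0.02. The neuronal markers, with their median of 0.22, were higher in this comparison too, and their part was not tested. In the other 3 comparisons at St16 the median of this list was between -0.09 and -0.04, near that of all genes. Here caps (0.15) was on the side of its list in ap + eya and trn (-0.06) was not. In ap + eya at AFT, 4 of the 17 were above 0 and 13 below, with a median of -0.11 beside -0.11 over all genes.

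Of 14 other wing patterning genes, hth, which encodes a homeodomain partner of Hox proteins, was the only gene at least 1.5-fold higher at St16. Its level was 193 TPM in col + lbe (0.84) and 171 in ap + eya (0.67), against 107 in the control. Genes higher by this much made up 1.58% of all genes in col + lbe and 1.32% in ap + eya. In col + lbe at St16, Dr, a homeobox gene that depends on Ap in the dorsal wing, was at 13.3 TPM against 22.2 in the control (-0.69). In ap + eya at St16 it was at 21.8 TPM (-0.02). The gene hth was higher at AFT in col (0.71), lbe (0.88) and ap + eya (0.80), but at 70.1 TPM in col + lbe against 64.1 in the control (0.13). At least 1.5-fold higher at AFT were 4.45% of all genes in col, 3.89% in lbe and 4.2% in ap + eya. The list median was -0.07 in col + lbe and 0.10 in ap + eya at St16, beside -0.05 and -0.02 over all genes. Besides Dr, the genes of the list at least 1.5-fold lower at AFT were if in lbe (-0.63), col + lbe (-0.69) and ap + eya (-0.59), and Dll in ap + eya (-0.62).

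The genes whose profile over the 10 groups was most like that of each member were found among 4292 or 4293 named genes with at least 5 TPM in a group of each stage, by Pearson's correlation of log2(TPM + 1) with each stage centred on its mean. With so few groups and so many candidates high correlations can arise from the number of candidates, and the groups of a stage share their table, so these are descriptions only. For Bx the nearest were pan (0.98), ems (0.96) and en (0.95). At St16, pan, which encodes the transcription factor of Wnt signalling, was at 12.7 TPM in control embryos, 11.5 with col, 10.6 with lbe, 10.6 with col + lbe and 13.9 with ap + eya, and the head gap and segment polarity genes ems and en were also lowest in col + lbe and highest in ap + eya there. For vg the nearest were Ptx1 (0.95), tey (0.94) and NTPase (0.93), with Ptx1 at 27.8 TPM in col + lbe and 45.0 in the control at St16. For Chi they were Mkp3, Rsf1 and Gint3 (0.99 each), for trn Vha68-1 (0.99), unc80 and usp (0.98 each), and for Ser VGlut (0.96), tup (0.95) and GstT2 (0.94). For Ssdp those near it included RpL13 (0.96), a ribosomal protein gene, and Ip259 (0.95). For caps they were ci (0.97), Muc18B (0.95) and scb (0.94), and for fng DCTN3-p24 (0.94), NC2beta (0.88) and Manf (0.86). Among the members themselves the closest pair by this measure was Chi and trn (0.96), and the most opposed was Ssdp and vg (-0.77).

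The other members lie on BDGP6.54 as follows. Chi (FBgn0013764) is on 2R from 24031538 to 24033943 on the minus strand, and vg (FBgn0003975) on 2R from 12884201 to 12899385 on the plus strand. Ssdp (FBgn0011481) is on 3R from 18192494 to 18199595 and Ser (FBgn0004197) on 3R from 27172090 to 27194267, both on the minus strand. On 3L, fng (FBgn0011591) runs from 20925891 to 20949512 on the minus strand, trn (FBgn0010452) from 13114271 to 13118077 on the plus strand and caps (FBgn0023095) from 13228692 to 13279642 on the plus strand. The only annotated transcript of fng shares 22 exonic bases with CG10589 on the opposite strand, which was at 0.515 TPM or less in every group.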

How the data were processed

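The submitters' processing notes name kallisto 0.43.1 and the build BDGP6. Neither the way transcripts became genes nor any use of strand in counting is stated there. The deposited tables hold 1 TPM column per genotype and stage. That the authors averaged 3 libraries is read from the decimals: times 3, the share of values between 10 and 100 TPM lying within 0.02 of a whole number at the 4th decimal was 56.2% (St16) and 54.5% (AFT), and with the factors 1, 2, 4 and 5 it was 19.9% to 28.0%. The authors' deposited lists give log2 fold changes of these TPM. The planned limma test needs single libraries and was not run.

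Fold changes were differences of log2(TPM + 1), which understates changes of genes at low TPM. A gene was tested with at least 1 TPM in either group and called at 1.5-fold or more. The 8 members were matched by exact case, since symbols that differ by case name different genes; positions are those of the BDGP6.54 annotation, which matched 12874 of 14040 St16 symbols. In the lists, CG32105, nct and con are spelt Lmx1a, Nct and Con in the tables. Named genes were the members, ap, up to 4 of each list with the largest offsets, and 3 genes of most similar profile per member, of which 1 is not reported here; values of hth, Lmx1a, CG4328, Lim3, Dr, Dl and N were followed into other comparisons after being seen. The members and lists were chosen with earlier results of these data known. The alternatives tried were a pseudocount of 0.1 or 5, filters of 0 or 5 TPM, median-ratio and quantile scaling, a 2-fold threshold, the median of the other 4 genotypes as reference and, added after seeing the data, the plain TPM ratio. Versions were numpy 2.4.6, pandas 2.3.3, scipy 1.17.1 and Python 3.11.15. The code that counts calls was run on simulated fold changes of known size.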

Additional observations from a re-analysis of the deposited data

How the results depend on the processing

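Counts of members at least 1.5-fold apart were 1, 1, 2 and 0 at St16 and 1 each at AFT in col, lbe, col + lbe and ap + eya. A pseudocount of 5 or a threshold of 2-fold gave 0 in every comparison, so each of the 8 calls is an offset between 1.5-fold and 2-fold on the log2(TPM + 1) scale that shrinks under a larger pseudocount. A filter of 5 TPM gave 0 in col, col + lbe and ap + eya at AFT, since vg is under 5 TPM there. Median-ratio scaling and quantile normalisation gave 0 in col at St16. With a pseudocount of 0.1, and likewise with the plain TPM ratio, ap + eya at St16 had 1 (vg) and lbe at AFT had 2 (Bx and vg). With the median of the other 4 genotypes as reference, col at St16 had 0, col + lbe at St16 had 1 (Bx), ap + eya at St16 had 1 (Bx, higher), and col and ap + eya at AFT had 0, while the 1 in col + lbe at AFT was Chi, higher, in place of vg. With no filter the counts were as reported. Of the 64 single values, 9 changed sign under median-ratio scaling and 9 under quantile normalisation, all of size 0.13 or less, and 17 with the median of the other 4 genotypes as reference. Median-ratio scaling moved the median of all genes by between -0.10 and 0.12. Leaving out replicates was not run, and no paired analysis was possible because the tables hold 1 mean per group. The depth and the spread behind each mean are unknown, which limits every value to a description.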
